A study of Mus musculus with 2 samples.

Results

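Insulin-like growth factors and the proteins that bind them were examined in mouse limb-mesenchymal organoids. The genes were chosen by symbol, as the ligands Igf1 and Igf2, the receptors Igf1r and Igf2r, and the binding proteins Igfbp2, Igfbp3, Igfbp4, Igfbp5, Igfbp6 and Igfbp7. All 10 were found among the 13916 protein-coding genes of the authors' deposited table. Photo-isolation chemistry was used, a spatial method that copies RNA into cDNA on the section itself from primers blocked by a light-sensitive cage, so that ultraviolet light picks out the areas to be sequenced. Both groups came from limb mesenchymal cells of embryos of the Slc:ICR strain, with no genetic change named, grown for 48 h in medium with Fgf8b and Wnt3a. The distal group was 5 regions lit on the distal side and pooled into 1 library, and the proximal group was 5 regions of the proximal side pooled into another. Both libraries carry the same description of 5 organoids from 4 cultures, so some regions share a culture, and distal and proximal regions may share an organoid. Which region came from which organoid, and whether the authors' fit took account of it, is not given in the sources used here. A fit that treats such regions as independent can give p-values that are too small or too large. Side and library were the same split and cannot be told apart.

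Insulin-like growth factors are secreted peptides that promote growth of embryonic tissues, the limb among them. They signal through Igf1r, a receptor tyrosine kinase, whereas Igf2r, which is also the cation-independent mannose 6-phosphate receptor, takes Igf2 to the lysosome and clears it. Binding proteins hold the ligands outside the cell and can limit or prolong their access to the receptor, and several of them also bind matrix or the cell surface.

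Igfbp5 was lower in distal than in proximal regions by 6.45-fold, and it was the only gene of the family to pass an adjusted p of 0.05. Its p-value was the smallest of the 13916 protein-coding genes in the authors' deposited table. Adjusting over these genes alone gave Igfbp5 an adjusted p of 4.44e-31, above the deposited 1.46e-31. The authors' adjustment was thus made over another set of features. Features outside these genes were not ranked here, and some may have smaller p-values. Across all genes the authors' deposited table called 136, which is 0.977%, and 81 of them, or 0.582%, were higher in proximal. Igf1r was 1.41-fold higher in distal and Igfbp4 1.32-fold higher in proximal, each without passing the adjusted threshold. Counts of the ligands were low, with 15 for Igf1 and 6 for Igf2 over all 10 regions. Igf2 shares 62.8% of its exonic bases with Gm49394, so its count need not reflect its transcript level.

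Depth differed between the sides. The relative depths of the regions, read from the repeating lowest means, were 0.329 to 0.832 in distal and 1.502 to 2.42 in proximal. With the summed means of all listed genes, this gives about 46991 to 118978 counts for a distal region and 214774 to 345649 for a proximal one. Counts summed over a side that reach 3 amount to a normalized mean of 1.02 (distal) or 0.311 (proximal), so low genes were bounded less tightly in distal. The median log2 change of all genes in the authors' deposited table was 0.07. All 9 limb mesenchyme markers examined were in the table. The endothelial, blood and surface ectoderm markers examined had summed normalized means of at most 4.30 on either side.

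The 2 ligands had few counts. For genes with such low means, the authors' deposited mean allows only 1 set of whole counts per region, so the data can be given region by region. Igf1, the ligand of postnatal and embryonic growth, had 3 counts in distal, with 2 in 1 region, 1 in another and 0 in the other three. In proximal it had 12 counts, with 2, 2, 3, 0 and 5 in the 5 regions, from the deepest to the shallowest. The sides overlapped, since both included regions with 0 and regions with 2 counts. Scaled by depth, the means per region were 1.09 in distal, with single regions from 0 to 3.04, and 1.32 in proximal, with regions from 0 to 3.33. Single regions carried much of both means. Without the shallowest distal region, which held 1 count, the distal mean was 0.601. Without the proximal region with 5 counts the proximal mean was 0.816, below the distal mean of all 5 regions. For Igf1 the authors' deposited table gave a log2 change of -0.36 ± 1.20 (SE, the fitted standard error), at adjusted p = 0.991. The 95% interval of that change ran from -2.71 to 2.00, so a difference of 4-fold in either direction was not detectable at this depth.

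Igf2, the main fetal ligand and an imprinted gene expressed from the paternal copy in most embryonic tissues, had 0 counts in all 5 distal regions. In proximal it had 1 count in each of 4 regions and 2 in the shallowest. The sides did not overlap in raw counts, but at the proximal level only 1.82 counts would have been present in distal. A count of 0 allows up to 3 counts there, a normalized mean of 1.02, which is above the proximal mean of 0.669. No fold is given for that reason. Igf2 was listed in the authors' deposited table at -0.99 ± 1.58 (log2 change ± SE), adjusted p = 0.991. Its values are uncertain for a further reason. Igf2 (chromosome 7, 142650766 to 142666816, minus strand, GRCm38) shares 3596 of its 5723 exonic bases (62.8%) with Gm49394, a gene annotated on the same strand. It shares 98 more with the antisense gene Igf2os. How the authors assigned reads of shared exons is not given in the sources used here, and Gm49394 was not analysed here.

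**Figure D1:**
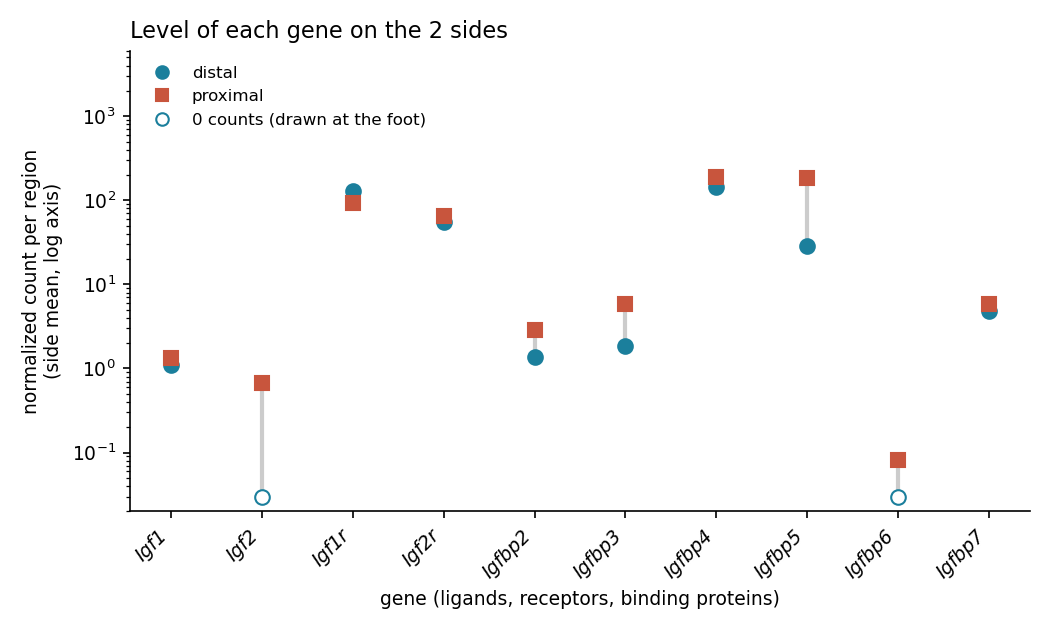
Mean normalized count per region of each gene on the distal side (circles) and the proximal side (squares), on a log axis; open symbols mark 0 counts, and no error is drawn, since values of single regions were not at hand for most genes. Igfbp5 stands at 28.4 in distal and 183 in proximal, the widest gap among genes with counts on both sides, while Igf2 and Igfbp6 had 0 distal counts. Counts are not scaled by transcript length, so heights compare sides and not genes.

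Both receptors were well covered. Igf1r (chromosome 7, 67952827 to 68233668, plus strand) had computed means of 129 normalized counts in distal and 91.8 in proximal, from about 378 and 886 counts. It was the family member with the largest estimate towards distal among those with more than 3 counts on each side. Its log2 change was 0.49 ± 0.16 (SE), with p = 0.00197 and adjusted p = 0.146 as the authors' deposited table has it. The 95% interval of the fold was 1.13 to 1.75. When p-values were adjusted over the 3757 genes with a mean of at least 10 only, its adjusted p was 0.0496, just under the threshold.

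Igf2r (chromosome 17, 12682406 to 12769664, minus strand) had computed means of 54.5 in distal and 64.7 in proximal. As listed in the authors' deposited table, its log2 change was -0.25 ± 0.21 (SE) at adjusted p = 0.991. The interval of the fold, from 0.888 to 1.59 towards proximal, includes no difference and leaves out any change of 2-fold or more. Igf2r shares no exonic base with another gene in the GENCODE M21 annotation.

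The binding proteins held the largest difference. Igfbp5 encodes a secreted protein that binds both ligands and also attaches to extracellular matrix. Its computed means were 28.4 normalized counts per region in distal and 183 in proximal, from about 83.2 and 1768 counts. The log2 change was -2.69 ± 0.22 (SE), and adjusted p = 1.46e-31, by the authors' deposited table. The 95% interval of the fold towards proximal was 4.80 to 8.66. The next smallest p-value in the authors' deposited table belonged to Gas1, a membrane protein of Hedgehog signalling, at 1.27e-34 against 3.19e-35 for Igfbp5. By size of the change, Igfbp5 ranked 26 of the 81 genes called higher in proximal. The called genes nearest to it in log2 change, over this 1 comparison of 2 sides, were Dact1, Col8a2 and Osr2. By the authors' deposited table they changed by -2.77, -2.85 and -2.85 on the log2 scale, which is 0.09, 0.16 and 0.16 from that of Igfbp5.

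**Figure D2:**
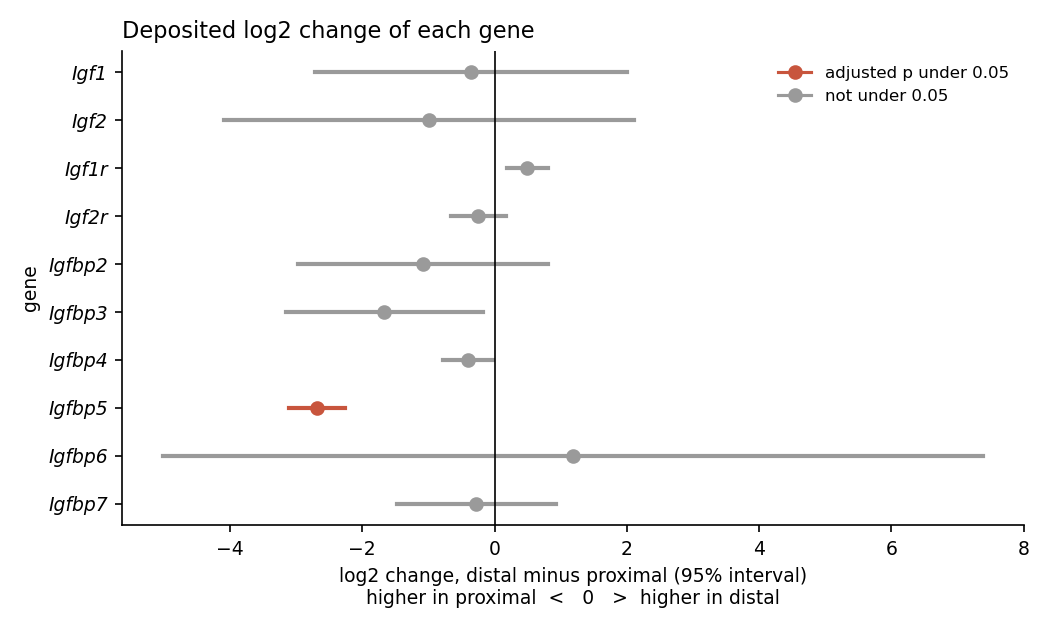
Log2 change of each gene, distal minus proximal, as deposited (points), with 95% normal intervals computed from the deposited standard errors (lines); the colour marks an adjusted p under 0.05. The interval of Igfbp5 runs from -3.11 to -2.26 and does not reach those of the receptors, Igfbp4 or Igfbp7. It overlaps those of Igfbp2 (-2.97 to 0.81), Igfbp3 (-3.15 to -0.18), Igf1, Igf2 and Igfbp6. Those of Igf1, Igf2 and Igfbp6 span 0 widely.

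Markers of other cell types also differed between the sides. Across all genes 0.977% were called, with 0.395% higher in distal and 0.582% higher in proximal. Of 10 skeletal muscle markers in the authors' deposited table, 4 were called, all higher in proximal. They were Actc1, Myog, Myl1 and Tnnt1. Computed distal counts were only 1.43 for Myog, 1.43 for Myl1 and 1.41 for Tnnt1, and computed distal counts under 3 were not checked. The list's summed normalized mean was 11.2 in distal and 113 in proximal, of which Actc1 alone held 8.27 and 71.5. None of the muscle markers Pax3, Des and Pax7 was called, and each had 0 distal counts, beside 19, 9 and 2 proximal counts. At the proximal level 5.76, 2.73 and 0.607 counts would have been present in distal, so for Des and Pax7 a count of 0 shows no difference at this depth. Pax3 shows none either, since the 95% interval of its log2 change, from -5.34 to 0.40, includes 0. Of 9 connective tissue markers, 4 were called higher in proximal and 1 higher in distal, with sums of 699 in distal and 1017 in proximal. Of 8 cartilage markers, 1 was called in the authors' deposited table, the transcription factor Sox9, which was higher in distal, and the list's sums were 1427 in distal and 1032 in proximal. The limb mesenchyme list was split, with Hoxd13 and Msx1 called higher in distal and Pdgfra and Tbx5 called higher in proximal by the authors' deposited table, and sums of 954 in distal and 749 in proximal. Their part in the Igfbp5 difference was not tested. In pooled regions, fewer cells of a type and less RNA per cell cannot be told apart.

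Igfbp5 lies on chromosome 1 from 72857932 to 72874884 on the minus strand, and Igfbp2 lies beside it from 72824503 to 72852474 on the plus strand. The genes point towards each other with 5457 bases between them. No near-identical copy was found elsewhere in the transcripts for any of the 10 genes, searched with the last 300 bases of each coding transcript. The sequence before the Igfbp5 start site is shown because Igfbp5 is the called gene of the family, and that of Igfbp4 because it is the other binding protein with many counts and was not called. Both are the stretch from 250 to 21 bases before the RefSeq start (GRCm38.p6), at chr1:72874886-72875115 on the minus strand and chr11:99040994-99041223 on the plus strand. Capitals mark matches to GCCNNNGGC, the AP-2 consensus, and to the TATA-like strings TATTTAA and TATAAA, on either strand.
Igfbp5: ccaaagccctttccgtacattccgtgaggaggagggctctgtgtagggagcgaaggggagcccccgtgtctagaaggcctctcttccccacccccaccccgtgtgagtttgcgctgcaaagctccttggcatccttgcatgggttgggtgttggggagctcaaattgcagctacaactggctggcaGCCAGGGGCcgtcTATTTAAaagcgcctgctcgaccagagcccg
Igfbp4: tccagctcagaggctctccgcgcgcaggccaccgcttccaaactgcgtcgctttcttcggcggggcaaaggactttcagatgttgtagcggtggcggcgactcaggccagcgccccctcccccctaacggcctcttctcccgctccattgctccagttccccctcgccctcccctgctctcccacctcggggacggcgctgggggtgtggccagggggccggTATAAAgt

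In the Igfbp5 stretch the AP-2 string starts 64 bases and the TATTTAA string 51 bases before the RefSeq start, and the 2 do not overlap. GENCODE places the outer end of Igfbp5 at 72874884, upstream of the RefSeq start, and both distances are shorter from there. The Igfbp4 stretch held TATAAA, 28 bases before its start, and no AP-2 string. Among 32851 promoter stretches of the same length in the RefSeq table, 12.4% held GCCNNNGGC, 3.97% TATTTAA and 11.8% TATAAA. All 10 genes matched the promoter table, with 14 start sites in all. The AP-2 string was found for 2 of them, Igfbp5 and 1 start site of Igf2, and a TATA-like string for 3, Igfbp4, Igfbp5 and Igfbp6. The strings were chosen with these sequences in view, and a match describes letters only.

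Igfbp4 (chromosome 11, 99041244 to 99054392, plus strand) is a binding protein that inhibits ligand action until it is cut by the protease Pappa. It had computed means of 143 in distal and 188 in proximal, from about 418 and 1818 counts. Its log2 change of -0.40 ± 0.19 (SE) had p = 0.0346 and adjusted p = 0.791 by the authors' deposited table. The interval of the fold towards proximal was 1.02 to 1.71. The ratio of Igfbp5 to Igfbp4 counts was 0.199 in distal and 0.973 in proximal. These ratios are not scaled by transcript length, but the 4.88-fold difference between the sides does not depend on it, and this difference was not tested.

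Igfbp3, the main carrier of these ligands in blood, had computed means of 1.85 in distal and 5.88 in proximal, from about 5.42 and 56.7 counts. The authors' deposited table put its log2 change at -1.67 ± 0.76 (SE), with p = 0.0278 and adjusted p = 0.711. The estimate was thus 3.18-fold towards proximal, with an interval from 1.13 to 8.90. Igfbp3 (chromosome 11, 7206086 to 7213923, minus strand) points towards Igfbp1, 3539 bases away.

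The remaining binding proteins had fewer counts or smaller estimates. Igfbp2, which is widely expressed in embryos, had about 3.98 distal and 27.7 proximal counts. Its log2 change of -1.08 ± 0.96 (SE) came with adjusted p = 0.991, per the authors' deposited table. Igfbp7, a related secreted protein with low affinity for the ligands, had means of 4.87 in distal and 5.89 in proximal. The log2 change that the authors' deposited table holds for it was -0.27 ± 0.62 (SE), and the interval of the fold towards proximal was 0.523 to 2.79. Igfbp7 shares 85 of its 1209 exonic bases with Polr2b on the opposite strand, and whether counting used strand is not given in the sources used here. Igfbp6, which prefers Igf2 as a ligand, had 1 count in all, in the deepest proximal region. The authors' deposited table listed it at a log2 change of 1.19, towards distal and against the side of its count. All 282 genes with this lowest mean have 1 count in that region and the same log2 change, so the sign of Igfbp6 carries no direction.

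**Figure D3:**
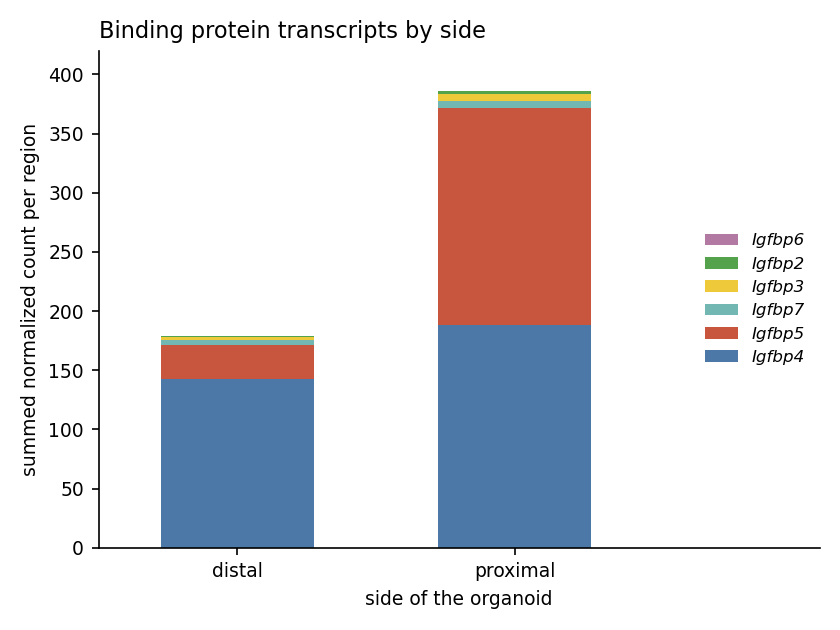
Mean normalized counts per region of the 6 binding protein genes, stacked by gene, on the distal and the proximal side; no error is drawn, since single regions could not be separated for most of them. The stack is 179 in distal and 386 in proximal, and the Igfbp5 part grows from 28.4 to 183.

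Summed over the 6 binding protein genes, the mean was 179 normalized counts per region in distal and 386 in proximal, a ratio of 2.16. Without Igfbp5 the sums were 151 and 203, a ratio of 1.35. Igfbp5 made up 15.9% of the binding protein counts in distal and 47.4% in proximal, and Igfbp4 79.6% and 48.8%. These shares are of counts and are not scaled by transcript length.

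As a group, 8 of the 10 genes had a negative log2 change in the authors' deposited table, where 45.5% of all genes did. The median log2 change was -0.38 for the family, 0.07 for all genes and -0.018 for genes above the median mean of 3.40. The values for all genes include those with 1 count in a proximal region. Such genes are listed at a log2 change of 1.19, towards distal, which lowers the share of negative changes and raises the median. An unadjusted p under 0.05 was found in the authors' deposited table for 4 of the 10 genes, Igf1r towards distal and Igfbp3, Igfbp4 and Igfbp5 towards proximal. The share of all genes at that level was 6.07%, with 2.56% towards distal and 3.51% towards proximal. Coverage differs among members. Of the 4 with a mean of at least 10 (Igf1r, Igf2r, Igfbp4 and Igfbp5), 3 had an unadjusted p under 0.05, where 12% of such genes did, and 1 was called, where 3.03% were. Only 7 of the 10 had more than 3 counts on each side, among them Igfbp2 at a computed 3.98 in distal.

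**Figure D4:**
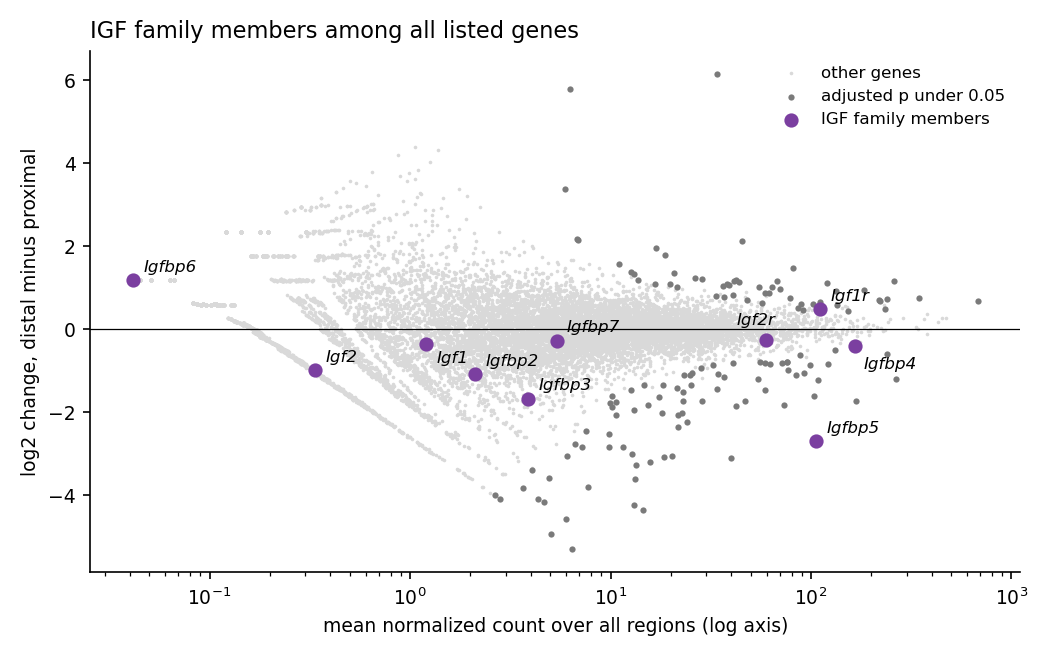
Log2 change, distal minus proximal, against the mean normalized count on a log axis for all 13916 genes of the authors' deposited table, with called genes dark and the 10 family members labelled. Igfbp5 lies at a mean of 106 and a log2 change of -2.69, below the other family members, and Igfbp6 sits at the lowest mean of the table.

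The genes around the family were read from 6 lists of the pathway, with 63 of 71 genes in the table. Of these, 2 were called in the authors' deposited table, both higher in proximal, and none was higher in distal. Across all genes 0.977% were called, and 0.582% were higher in proximal. Both calls came from the list of imprinted growth genes, and the other lists had none. The median log2 change of the 63 genes was -0.05, against 0.07 for all genes and -0.018 for genes above the median mean. Dlk1, a membrane protein related to Notch ligands, stood at -2.85 ± 0.57 (log2 change ± SE) with adjusted p = 0.000187 by the authors' deposited table. It had about 8.22 distal and 195 proximal counts. Peg10, a retrotransposon-derived gene needed in the placenta, stood at -1.45 ± 0.28, with adjusted p = 4.7e-05 by the authors' deposited table. The other 12 of the 14 imprinted genes were not called. Plagl1, a transcription factor, and Grb10, an adaptor that restrains the receptor, had the highest means of that list, and the authors' deposited table has them at log2 changes of 0.12 and -0.13.

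None of the 20 receptor adaptor and PI3K-Akt genes or the 16 genes of the mTOR, FoxO and Gsk3 branches was called. None had an unadjusted p under 0.05 in the authors' deposited table either. The shares of all genes were 0.977% called and 6.07% with such a p, so few or none would be reached in lists this short. The medians of these lists were 0.12 and 0.04. In the authors' deposited table the kinases Akt1 and Gsk3b had log2 changes of 0.04 and 0.02, with 95% intervals from -0.26 to 0.34 and from -0.32 to 0.35. Both signs turned on centring at the median of all genes, but not at the median of genes above the median mean. Rps6kb1, a kinase downstream of mTOR, had one of -0.08 there, with an interval from -0.55 to 0.40.

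Genes that act on the ligands or their carriers outside the cell were thinly covered. Of 6 proteases of binding proteins and their inhibitors, 0 were called, beside 0.977% of all genes. Pappa, which cuts Igfbp4 and Igfbp5, stood at -0.63 ± 0.58 (log2 change ± SE) in the authors' deposited table, and Stc1, an inhibitor of Pappa, at -0.72 ± 0.75. Htra1, a secreted serine protease that can cut binding proteins, had a computed 0.842 distal and 21.9 proximal counts and adjusted p = 0.420 by the authors' deposited table. Computed distal counts under 3 were not checked, and this one cannot be told from 0. Htra1 was named after its values were seen, as the 1 pathway gene outside the imprinted list with an unadjusted p under 0.05. Of 7 mannose 6-phosphate sorting genes, which share the lysosomal route of Igf2r, 0 were called, beside the same share of all genes. M6pr, the cation-dependent receptor, stood at a log2 change of -0.46 with an unadjusted p of 0.0658, and Gga3, a sorting adaptor, at -0.68, both from the authors' deposited table. The insulin receptor gene Insr, the 1 gene in the table from the list of other ligands, receptors and carriers, stood at -0.43 ± 0.46 (log2 change ± SE) in the authors' deposited table.

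**Figure D5:**
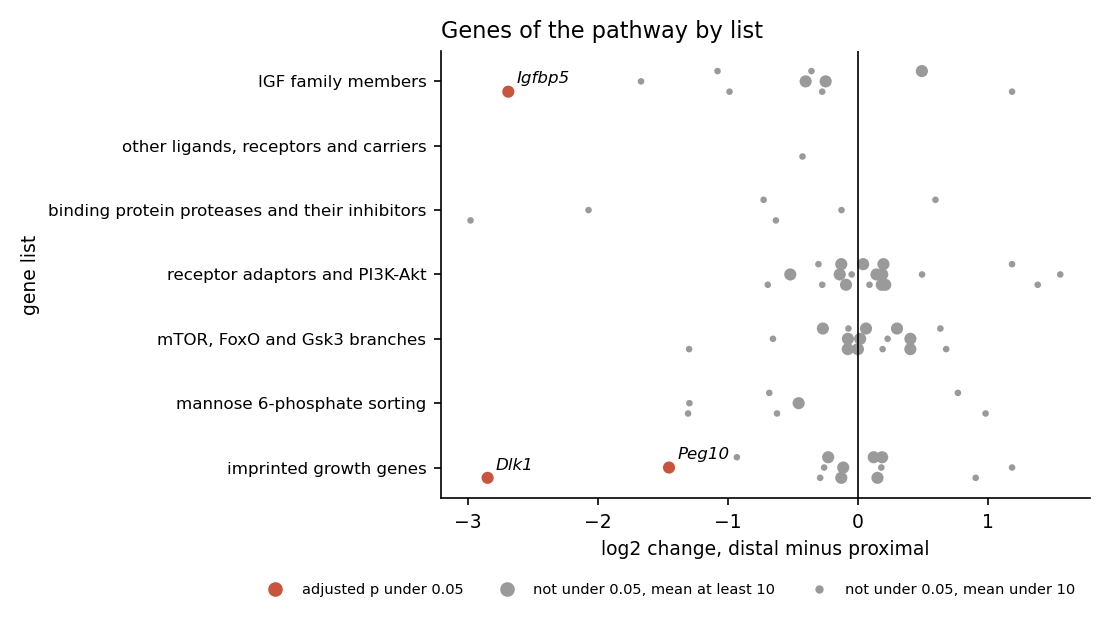
Log2 change, distal minus proximal, of each gene by list; large points have a mean of at least 10 normalized counts, small points less, and the colour marks an adjusted p under 0.05. Igfbp5, Dlk1 and Peg10 are the called genes, all on the proximal side of 0. The receptor adaptor and PI3K-Akt list has a median of 0.12, with genes from -0.69 to 1.56. The list of mTOR, FoxO and Gsk3 branches has a median of 0.04, with genes from -1.30 to 0.68.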

How the data were processed

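The analysis used 1 file, the authors' deposited comparison of the 2 sides, which per the file headers is a results table of DESeq2. Each gene has a mean, a signal in normalized counts that the authors deposited as an average across regions. The authors fitted a log2 change, positive where distal is higher, with its standard error. The deposited score is the ratio of these to within 1.91e-06, and the deposited p-value is its two-sided normal probability, which the authors adjusted. The builds mm10 and GRCm38 come from the submitters' processing notes. The aligner and the counting are not given in the sources used here.

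No count test was run, since values of single regions are not listed. Calls are genes with a deposited adjusted p under 0.05. Region depths were read from steps of the lowest means shared by at least 20 genes. The search stopped at 10 steps, the number of regions, so the number of steps is no check of the design. A region's side was read from how the log2 change moved from 1 to 2 counts. Whole counts per region matched the mean within 3e-08 in exactly 1 way for 4646 of 4700 genes whose mean was at most 1.25. For other genes, side means and counts were computed from the deposited mean, log2 change and depths. They were checked on 429 genes with known counts, at least 3 in distal and more than 3 in proximal. The median absolute errors were 0.272 distal and 0.539 proximal counts, and the largest were 1.65 and 2.34. Genes with a mean above 1.25 have no known counts to check against. Intervals are 95% normal intervals, and limits from 3 counts cover counting error only.

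Positions and exons came from GENCODE mouse M21, promoters from RefSeq (GRCm38.p6), and copies from blastn 2.17.0 (at least 200 bases at 95% identity). Python 3.11.15, pandas 2.3.3 and scipy 1.17.1 were used, and the steps were tested on simulated data. All 10 members are named, with called pathway genes, the 2 genes per list with the highest mean and the 3 called genes nearest to Igfbp5. Members and lists were chosen with earlier results of these data known. Alternatives covered the threshold, the adjustment, a minimum fold, centring, the step rule and, for members with whole counts per region, leaving out each region.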

Additional observations from a re-analysis of the deposited data

How the results depend on the processing

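Of the 10 members, 1 was called under 6 of 7 alternatives, and Igfbp5 was called under all 7, with log2 changes from -2.76 to -2.67 and adjusted p from 4.44e-33 to 1.23e-30. Adjusting over the genes with a mean of at least 10 gave 2 calls, 1 of them higher in distal, since Igf1r then had a log2 change of 0.49 with an adjusted p of 0.0496. Fewer genes are tested there. Over its 7 alternatives the adjusted p of Igf1r ran from 0.0496 to 0.318. The 2 calls among the pathway lists, both of imprinted genes, stayed at 2 under all 7. Centring on the median of all genes turned Akt1 to -0.026 and Gsk3b to -0.049. With the median of genes above the median mean as the centre, they kept their signs, at 0.059 and 0.036. At a threshold of 0.01 Dact1 and Col8a2, with log2 changes of -2.77 and -2.85, were no longer called. The 6 members with a mean under 10 have no value under that adjustment. Computed counts stayed within their counting intervals under both alternatives tried.

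No paired analysis was possible because the groups are 1 library each, and the region counts read from the low means carry no region or organoid number. Leaving out each region could be run for the means of Igf1, Igf2 and Igfbp6 alone, a choice made after seeing the data. The mean of Igf1 then ran from 0.601 to 1.36 in distal and from 0.816 to 1.65 in proximal, and that of Igf2 from 0.504 to 0.733 in proximal. Igfbp6 had a proximal mean of 0 without its 1 region with a count. For the calls and the other members it was not run, since their region values are not listed. The distal depth, a sum of size factors of 2.93 against 9.65 in proximal, limits what can be said of Igf1, Igf2, Igfbp2, Igfbp3 and Igfbp6. For Igf2 the exons shared with Gm49394 are a further limit, on both sides.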
